A study of Mus musculus with 6 samples.

Results

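The Wnt ligands, their receptors and their secreted modulators were described in RNA-seq counts of P3 (postnatal day 3) sciatic nerves, 3 from control and 3 from Dok6 mutant mice. P3 is a stage at which Schwann cells sort axons in the nerve. The 45 genes were chosen by their symbols among the 54532 genes of the table. The rule itself uses no expression value, but earlier results of these data were known when it was set. They comprised 19 Wnt ligands, 12 receptors (10 frizzled genes and the co-receptors Lrp5 and Lrp6), 4 R-spondins, 9 secreted inhibitors of the Sfrp, Dkk and Wif families, and Axin2. Control mice were labelled WT and the mutant mice Dok6 KO. The mutant carries a conventional deletion of Dok6 exon 3 by EIIA-cre, so that the deletion is in every tissue and not in the nerve alone, and the mice are on a C57BL/6 background. DOK6 is a docking protein of receptor tyrosine kinases. Each library came from 1 mouse, and the methods state that the sexes were not separated.

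Wnt proteins are lipid-modified secreted ligands that bind frizzled receptors. Together with LRP5 or LRP6 this stabilizes β-catenin, which enters the nucleus with TCF/LEF factors, whereas other frizzled signals act on cell polarity and on the cytoskeleton. SFRP and WIF1 proteins bind the ligands, DKK proteins bind the co-receptors, R-spondins keep the receptors at the surface, and AXIN2 is both a target and an inhibitor of the β-catenin branch. In the peripheral nerve, Wnt signaling in Schwann cells is known for its part in radial sorting and myelination.

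The libraries held 17699904 to 18678170 counts, and 3 counts corresponded to 0.161 to 0.169 CPM (counts scaled to the size of each library, with TMM factors). Dok6 was at 17.8, 11.9 and 17.5 CPM in control mice 1, 2 and 3 and at 7.26, 5.78 and 7.15 CPM in mutant mice 1, 2 and 3. It fell by 1.23 ± 0.20 on the log2 scale (SE, edgeR adjusted p = 0.0118), without overlap of the genotypes. The counts are over the whole gene, of which the deletion takes exon 3, and 140, 106 and 135 counts remained in the mutant mice. The tissue label was checked against 13 lists of cell type markers. Every library carried markers of the spinal cord: all 12 spinal cord neuron markers and all 8 astrocyte markers were at 1 CPM or more in each mouse, and Slc32a1, the transporter of inhibitory neurons, was at 125 to 181 CPM. Of the 16 Schwann cell markers, which define the glia of the labelled tissue, 13 were at 1 CPM or more in each mouse and none was at 0 in any library. Spinal cord markers at these levels go against a pure sciatic nerve, so the tissue of the libraries is in doubt, and the values below are those of the libraries labelled sciatic nerve.

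Markers of several cell types moved with the genotype. Of the 17099 genes tested, 8.62% were higher and 6.01% lower in the mutant at an adjusted p under 0.05 (edgeR). The summed fibroblast and meninges list was at 377 to 1258 CPM in control mice and at 2094 to 3170 CPM in mutant mice, with 4 of 13 genes higher. The DRG sensory neuron list was at 630 to 747 and at 846 to 1574 CPM, with 9 of 15 genes higher. The skeletal muscle list was at 40.5 to 59.8 and at 163 to 730 CPM, with 11 of 14 higher. None of the 5 erythroid genes was higher and 4 were lower, the sum being 431 to 746 CPM in control and 75.4 to 290 CPM in mutant mice. The Schwann cell list had 7 of 16 genes higher, but its sums of 667 to 2251 and 1084 to 7479 CPM overlapped. Spinal cord neuron markers were at 1289 to 1464 CPM in control and at 1080 to 1204 CPM in mutant mice, with 2 of 12 lower. Endothelial markers were at 182 to 285 and at 314 to 430 CPM with 4 of 8 higher, whereas in the ependyma and choroid plexus list only Aqp1, a water channel, separated the genotypes (1.49 to 2.18 against 25.8 to 59.0 CPM) and the other 6 genes overlapped. The macrophage and microglia list was at 104 to 143 and at 155 to 186 CPM, and the pericyte and smooth muscle list at 170 to 269 and at 279 to 565 CPM, each with 1 gene higher. Those are 1 of 9 and 1 of 8 genes, near the share of all genes. The perineurial list, with 1 gene higher, and the astrocyte and oligodendrocyte lists, with none, had overlapping sums. Of the list genes, 1 DRG, 1 oligodendrocyte and 2 muscle markers were at 0 in at least 1 library. The part of these differences in the Wnt gene values was not tested. In whole tissue, fewer cells of a type and less RNA per cell cannot be told apart.

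**Figure D1:**
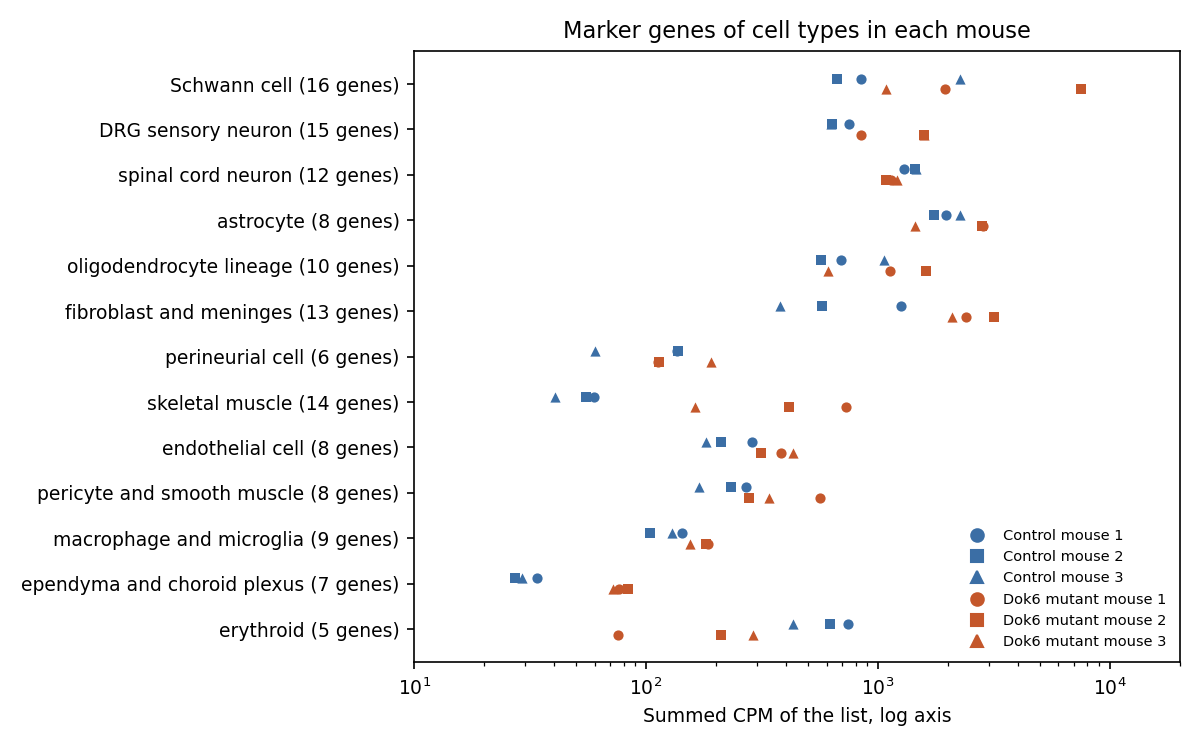
Summed level of the marker genes of each cell type in each mouse, in CPM on a log axis, with control mice in blue and Dok6 mutant mice in orange. The skeletal muscle, fibroblast, DRG, endothelial, macrophage, pericyte and ependyma sums are higher in every mutant mouse than in any control mouse. The erythroid and spinal cord neuron sums are lower in every mutant mouse. The spinal cord neuron list is 1080 CPM or above in all 6 mice.

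Of the 45 Wnt genes, 39 passed the filter on low counts and 6 did not: Wnt3a, Wnt8a, Wnt8b, Wnt10a, Wnt16 and Dkk4. Among the 39, 7 were higher in the libraries labelled Dok6 mutant nerve at an adjusted p under 0.05 (17.9%), where 8.62% of the 17099 genes tested were higher. The 7 were the ligands Wnt2b and Wnt6, the receptors Fzd2, Fzd8 and Fzd9, and the inhibitors Sfrp5 and Dkk2. None was lower, where 6.01% of all genes were, and none was lower at an unadjusted p under 0.05 by edgeR or at the adjusted threshold by DESeq2 or limma voom. With a log2 change above 1 in addition, 5 genes were higher against 3.58% of all genes, and with a change above 2 only Sfrp5 was, against 1.08%. Sfrp5 itself passed the filter on low counts only through the mutant mice. The genotypes did not overlap for 9 of the 39 genes, all 9 higher in the mutant (19.6% of all genes higher, 18.7% lower), which adds Lrp5 and Wnt9a to the 7. The median log2 change of the 39 was 0.24, beside 0.013 for all genes, and it was 0.151 without mutant mouse 1. The count depended on control mouse 2, without which 0 of the 39 genes were called, and on mutant mouse 2, without which 4 were. Without control mouse 2 the calls over all genes fell from 1474 higher and 1028 lower to 56 and 12, and without mutant mouse 2 to 549 and 174.

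**Figure D2:**
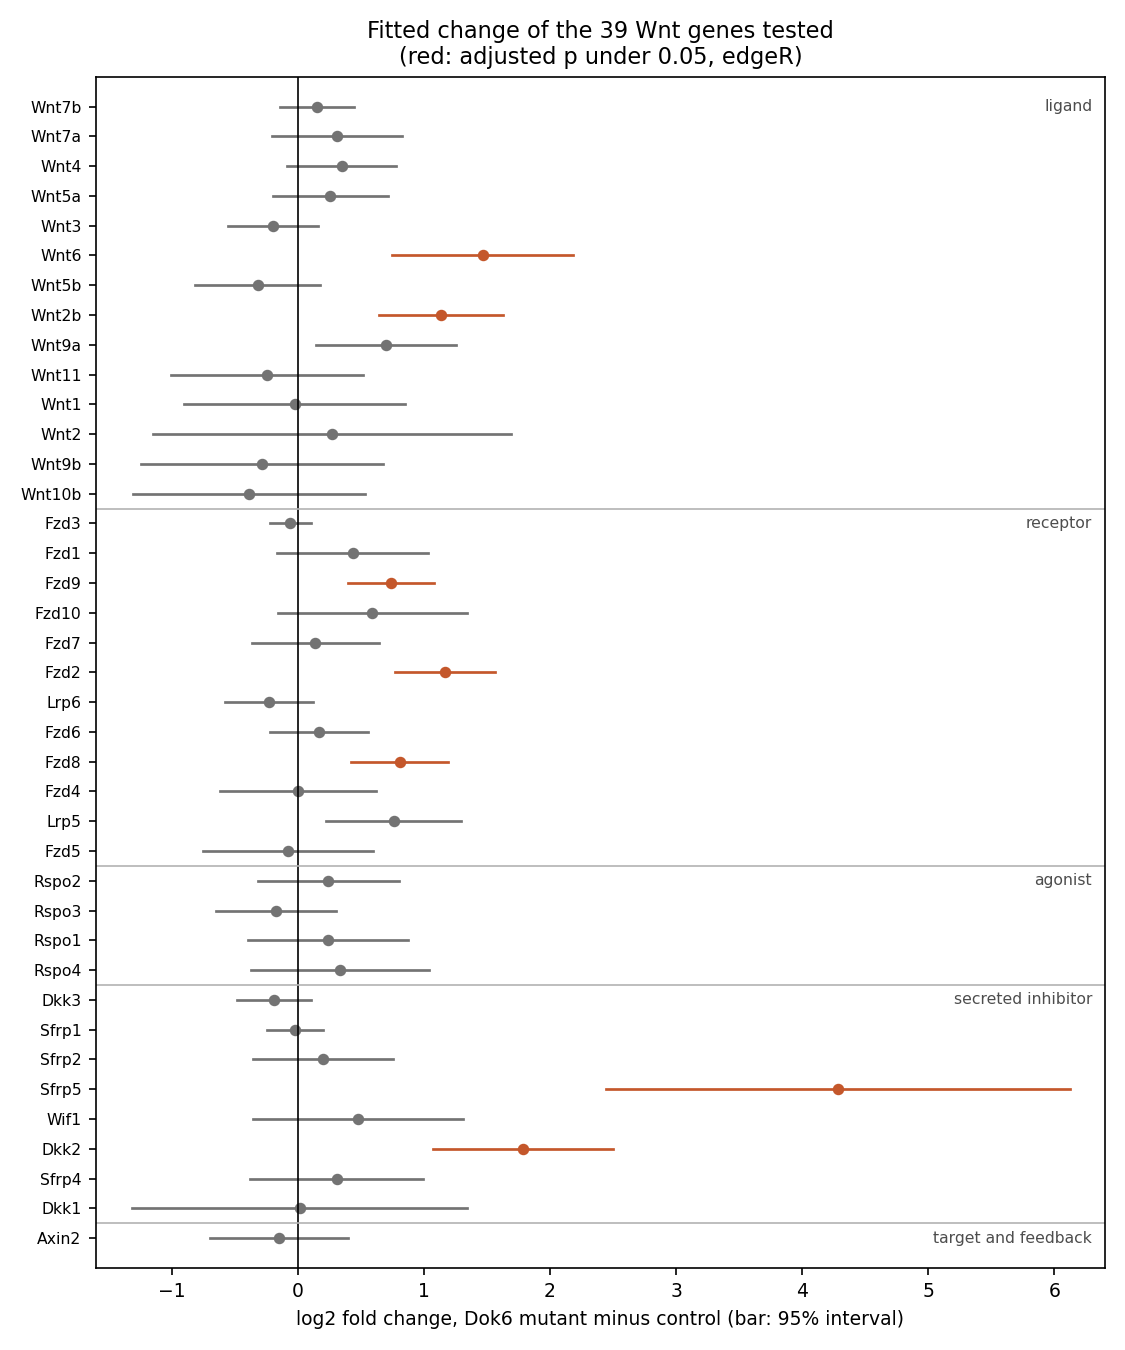
Log2 fold change of the 39 tested Wnt genes, Dok6 mutant minus control, with the 95% interval of edgeR, by role. The 7 genes past the adjusted p all lie above 0, and 26 of the 39 estimates are above 0.

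The regions upstream of the genes were read to show the members with the largest changes beside one that was not called. The 250 bases before the RefSeq start on GRCm38.p6 are given for Sfrp5, Dkk2 and Wnt6, whose log2 changes were the largest, and for Axin2, the target gene. They are written 5′ to 3′ on the strand of the gene, with the GC box GGGCGG or its reverse complement CCGCCC in capitals.
Sfrp5 (chr19:42202253-42202502, minus strand): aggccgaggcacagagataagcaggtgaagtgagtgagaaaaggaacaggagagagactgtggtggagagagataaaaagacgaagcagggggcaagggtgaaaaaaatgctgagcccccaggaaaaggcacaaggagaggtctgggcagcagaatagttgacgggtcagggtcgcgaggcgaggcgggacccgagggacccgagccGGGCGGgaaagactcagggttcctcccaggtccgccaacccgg
Dkk2 (chr3:132085042-132085291, plus strand): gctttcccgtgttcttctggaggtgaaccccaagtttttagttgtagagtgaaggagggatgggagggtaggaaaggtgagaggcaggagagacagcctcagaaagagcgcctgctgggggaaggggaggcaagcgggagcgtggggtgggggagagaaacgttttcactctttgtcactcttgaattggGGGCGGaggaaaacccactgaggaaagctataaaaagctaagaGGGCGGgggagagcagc
Wnt6 (chr1:74771642-74771891, plus strand): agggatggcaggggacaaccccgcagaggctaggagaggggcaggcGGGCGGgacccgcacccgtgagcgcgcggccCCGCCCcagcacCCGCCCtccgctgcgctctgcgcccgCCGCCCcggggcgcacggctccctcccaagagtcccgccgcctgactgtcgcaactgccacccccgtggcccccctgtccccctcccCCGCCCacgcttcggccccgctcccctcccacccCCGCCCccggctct
Axin2 (chr11:108920099-108920348, plus strand): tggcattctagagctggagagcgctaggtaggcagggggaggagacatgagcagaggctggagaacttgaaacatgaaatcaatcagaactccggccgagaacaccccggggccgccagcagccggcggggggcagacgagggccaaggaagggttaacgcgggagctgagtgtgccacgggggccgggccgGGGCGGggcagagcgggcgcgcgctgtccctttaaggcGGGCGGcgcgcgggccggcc
The Dkk2 and Sfrp5 windows have 7 and 13 CpG and a G and C content of 55.6% and 59.6%, whereas those of Axin2 and Wnt6 have 24 and 28 CpG and 69.2% and 79.6%. A RefSeq window was found for 29 of the 45 genes (32 windows). The GC box, on either strand, was in 23 of the 32 windows of these genes (71.9%) and in 32.7% of the 32851 windows of all genes. It was in all 5 windows found for the 7 genes that rose (Fzd2 and Fzd8 have none in the table). It was also in 18 of the 27 windows of the genes not called (66.7%). Of the 5 windows, those of Wnt2b and Fzd9 lie mostly within GENCODE exons of the gene itself (212 and 183 of 250 bases). The TCF/LEF motif ATCAAAG, on either strand, was in 3.21% of all windows and in 2 of the 32, those of Wnt11 and Wnt5b, and in none of the 5. The median G and C content was 68.6% in the windows of these genes and 52.4% in all. These matches describe the letters of the windows only.

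Per length, the ligands were led by the same genes in both genotypes. Levels are compared between genes in RPKM, which are CPM divided by the authors' gene length in kilobases. The mean of the 6 mice was 8.50 RPKM for Wnt7b and 7.42 for Wnt7a, ligands of the developing central nervous system that also act on its blood vessels, 4.51 for Wnt4, and 3.99 for Wnt5a, a ligand of the β-catenin-independent branch. Wnt7b was at 40.9, 36.7 and 40.8 CPM in control mice and at 50.4, 44.6 and 36.2 CPM in mutant mice, with overlap and a log2 change of 0.15 ± 0.13 (SE, edgeR adjusted p = 0.452). Wnt7a was at 18.6, 20.2 and 24.2 CPM and at 31.5, 29.8 and 16.9 CPM, mutant mouse 3 lying below every control mouse. Wnt4 was at 19.6, 14.9 and 15.4 against 22.1, 15.98 and 25.4 CPM. Only mutant mouse 1 stood out for Wnt5a, which was at 28.0 to 29.3 CPM in controls and at 46.8, 26.5 and 28.8 CPM in the mutants. None of these 4 ligands was called with all mice, Wnt7a passed without mutant mouse 3 (log2 change 0.54, edgeR adjusted p = 0.0376), and each overlapped in RPKM over the 6 mice with its neighbours in this order, although Wnt7a lay above Wnt4 in all control mice.

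**Figure D3:**
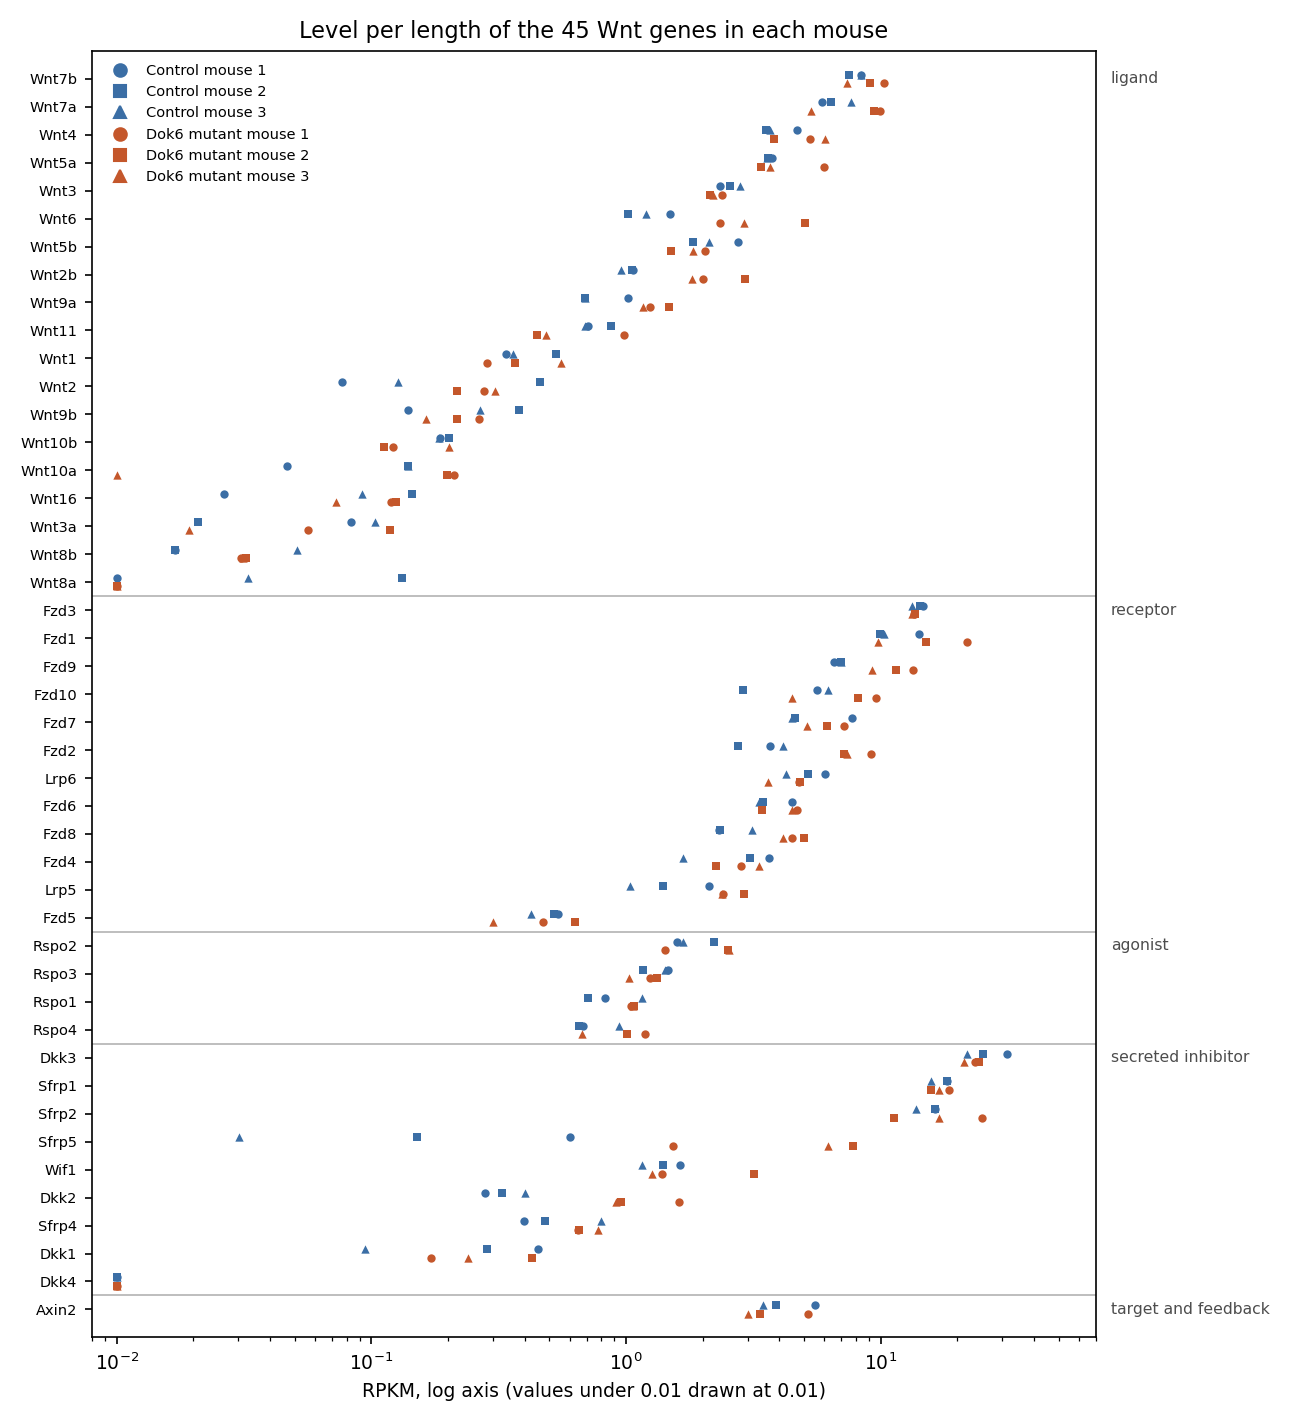
Level per length of all 45 Wnt genes in each mouse, in RPKM on a log axis, by role and in order of their mean, with values under 0.01 drawn at 0.01. Wnt7b and Wnt7a lead the ligands, Fzd3 and Fzd1 the receptors, Rspo2 the agonists and Dkk3 the inhibitors. Sfrp5 spans the longest stretch of the log axis, from 0.0301 to 7.78 RPKM.

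The ligands that rose were of intermediate level. Wnt6 (ENSMUSG00000033227, chr1:74771892-74785322) was at 3.27, 2.24 and 2.63 CPM in control mice 1, 2 and 3 and at 5.14, 11.02 and 6.36 CPM in mutant mice 1, 2 and 3. Every mutant mouse was above every control mouse, with mutant mouse 2 the highest. Its log2 change was 1.46 ± 0.31 (SE, edgeR adjusted p = 0.0228), which was 1.08 without mutant mouse 2 (adjusted p = 0.0588), 1.34 without control mouse 2 (adjusted p = 0.105) and 1.45 without control mouse 3 (adjusted p = 0.0558). Wnt2b (ENSMUSG00000027840, chr3:104945272-104961921), a ligand of the β-catenin branch, was at 4.48, 4.41 and 4.003 CPM in control and at 8.40, 12.3 and 7.63 CPM in mutant mice. The control mice were close together and all mutant mice lay above them, again with mutant mouse 2 the highest. The log2 change was 1.13 ± 0.22 (SE, edgeR adjusted p = 0.0171), and 1.15 with an adjusted p of 0.0841 without control mouse 2. Wnt9a did not overlap either, at 3.39, 2.29 and 2.29 CPM in control and 4.15, 4.91 and 3.87 CPM in mutant mice, but was not called (log2 change 0.70 ± 0.24, edgeR adjusted p = 0.0854). The other 11 tested ligands overlapped and were not called, among them Wnt3 at 7.17 to 8.58 CPM in control and 6.55 to 7.31 CPM in mutant mice and Wnt5b at 4.87 to 7.29 and 3.98 to 5.39 CPM. Wnt1, Wnt2, Wnt9b and Wnt10b stayed at 1.72 CPM or below in every mouse. The summed ligand level was 31.1 to 33.0 RPKM in control and 34.2 to 43.8 RPKM in mutant mice, without overlap and with no test run on the sum.

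Of the 12 receptor genes, all passed the filter and 3 rose (25%, beside 8.62% of all genes), each from another frizzled subfamily. Fzd2 (ENSMUSG00000050288, chr11:102604396-102608058), which is close in sequence to Fzd1 and Fzd7, was at 13.5, 10.1 and 15.2 CPM in control and at 33.6, 26.3 and 26.9 CPM in mutant mice. The mutant mice all lay above the controls, and the log2 change of 1.16 ± 0.17 (SE) had the smallest adjusted p of the 39 genes (edgeR, 0.00996). It was 1.01 with an adjusted p of 0.0519 without control mouse 2. Its relatives did not follow this separation. Fzd1 was at 59.5, 41.8 and 43.3 CPM in control and 91.2, 63.1 and 41.1 CPM in mutant mice, and Fzd7 at 20.4 to 34.9 and 23.3 to 32.6 CPM, and both overlapped. The difference between these changes was not tested.

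Fzd8, a receptor of the subfamily of Fzd5, was at 7.75, 7.80 and 10.5 CPM in control and at 14.9, 16.7 and 13.8 CPM in mutant mice (ENSMUSG00000036904). The groups did not overlap, and the log2 change was 0.81 ± 0.17 (SE, edgeR adjusted p = 0.0212). Fzd5 was at 2.92 to 3.73 CPM in control and at 2.07 to 4.36 CPM in mutant mice. Fzd9 (ENSMUSG00000049551, chr5:135248938-135251230), of the subfamily of Fzd4 and Fzd10, was at 15.0, 15.9 and 16.1 CPM in control and at 30.8, 26.4 and 21.2 CPM in mutant mice. No mouse overlapped, mutant mouse 1 was the highest, and the log2 change was 0.74 ± 0.15 (SE, edgeR adjusted p = 0.0199). Leaving out control mouse 1, control mouse 2, mutant mouse 1 or mutant mouse 2 ended the call of Fzd8 (adjusted p 0.0541, 0.0981, 0.0555 and 0.0685) and did the same for Fzd9 (0.0534, 0.0897, 0.0579 and 0.0576). Fzd10 was at 18.2, 9.34 and 20.1 CPM in control and 31.0, 26.3 and 14.5 CPM in mutant mice, and Fzd4 at 11.2 to 24.6 and 15.1 to 22.4 CPM, with overlap in both.

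Fzd3, known for axon guidance in the nervous system, and Fzd1 had the highest receptor levels per length, 13.8 and 13.5 RPKM over the 6 mice. The order of their means turned between the genotypes, Fzd3 being the higher in control (14.1 ± 0.682 against 11.5 ± 2.34 RPKM, SD, n = 3) and Fzd1 in mutant mice (15.5 ± 5.99 against 13.5 ± 0.163 RPKM), but their values overlapped in both genotypes. Fzd3 was at 188, 182 and 170 CPM in control and at 173, 174 and 170 CPM in mutant mice, which is a log2 change of -0.06 ± 0.07 (SE, edgeR adjusted p = 0.577) with an interval of -0.22 to 0.10. The co-receptors differed in value. Lrp5 was at 20.5, 13.6 and 10.1 CPM in control and at 23.4, 28.3 and 23.2 CPM in mutant mice, without overlap, and its log2 change of 0.76 ± 0.24 (SE) did not pass (edgeR adjusted p = 0.0621). It passed with DESeq2, with limma voom, without the filter on low counts, and in edgeR without control mouse 1 (adjusted p = 0.0267). Lrp6 was at 82.4, 71.0 and 57.9 CPM in control and 65.2, 65.6 and 49.4 CPM in mutant mice, with overlap (log2 change -0.23 ± 0.15, edgeR adjusted p = 0.33). Fzd6 was at 15.96 to 21.5 and 16.4 to 22.5 CPM.

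**Figure D4:**
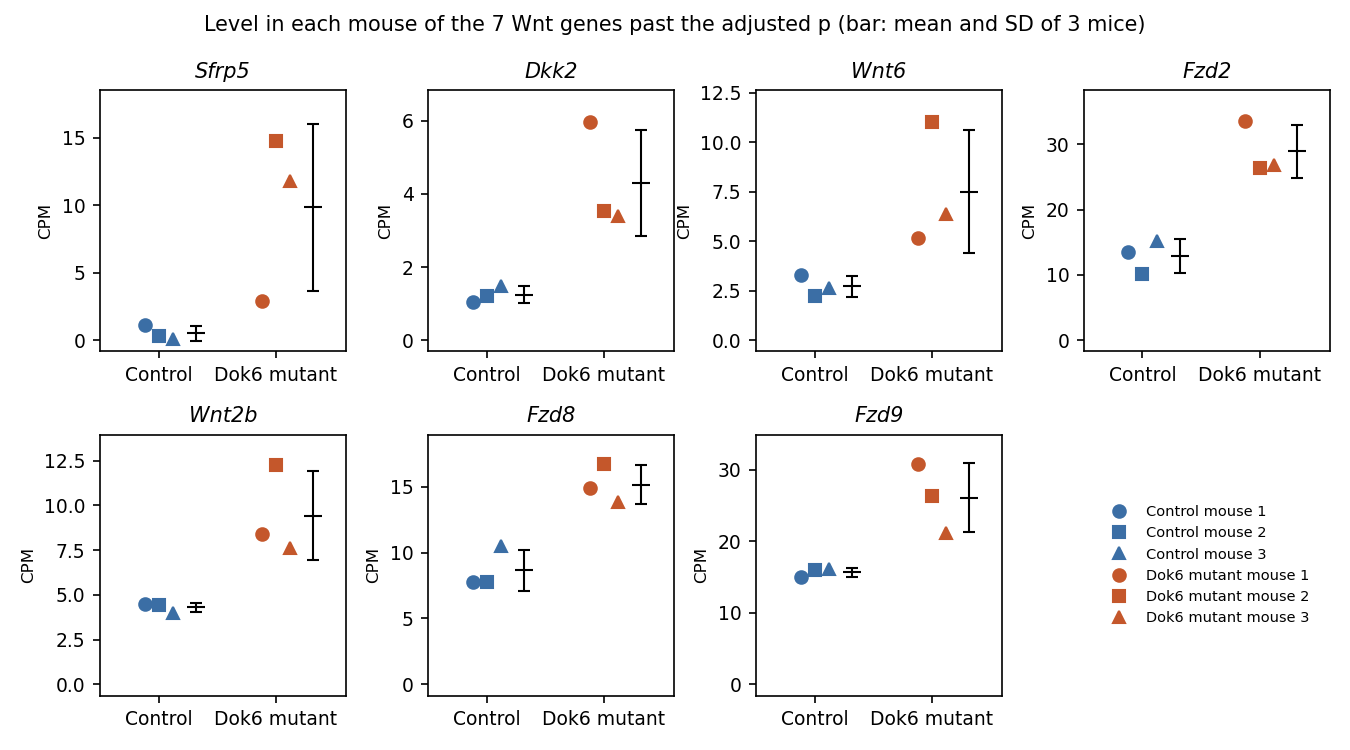
Level in each mouse of the 7 Wnt genes that passed the adjusted p, in CPM, with the mean and SD of 3 mice per genotype beside the points. In each panel all mutant mice lie above all control mice. The mutant mice spread most for Sfrp5, from 2.90 to 14.8 CPM.

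Among the secreted inhibitors, Sfrp5 and Dkk2 had the largest log2 changes of all 39 genes and were both low in the controls. Sfrp5 (ENSMUSG00000018822, chr19:42197971-42202252), a decoy that binds Wnt ligands, was at 1.15, 0.287 and 0.0572 CPM in control mice 1, 2 and 3, or 20, 5 and 1 counts. In mutant mice 1, 2 and 3 it was at 2.90, 14.8 and 11.8 CPM, or 56, 271 and 223 counts. Control mouse 3 lay below the level of 3 counts, and mutant mouse 1 was well below the other mutant mice. Sfrp5 passed the filter on low counts only through the mutant mice. It was not tested when at least 10 counts were required in every library. The log2 change was 4.29 ± 0.81 (SE, edgeR adjusted p = 0.0168) with a 95% interval of 2.45 to 6.13. It was 5.78 without control mouse 1 (adjusted p = 0.0267) and 4.01 without control mouse 2 (adjusted p = 0.0897), and limma voom did not call it (adjusted p = 0.0582). Dkk2 (ENSMUSG00000028031, chr3:132085292-132180304), which binds the LRP co-receptors, was at 1.03, 1.20 and 1.49 CPM in control and at 5.96, 3.55 and 3.39 CPM in mutant mice. The lowest mutant mouse was above the highest control mouse. Its log2 change was 1.79 ± 0.31 (SE, edgeR adjusted p = 0.0142), and 1.76 with an adjusted p of 0.0781 without control mouse 2.

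The inhibitors with the highest levels per length overlapped between the genotypes and were not called. Dkk3, a divergent member of its family, had a mean of 24.5 RPKM over the 6 mice, and Sfrp1 and Sfrp2 had 17.2 and 16.6 RPKM. Dkk3 was at 105, 84.7 and 73.5 CPM in control and 78.5, 81.3 and 71.0 CPM in mutant mice, with a log2 interval of -0.49 to 0.11. Sfrp1 was at 79.6, 79.3 and 68.6 against 80.7, 68.7 and 74.2 CPM, with a log2 interval of -0.25 to 0.20. For Sfrp2 the values were 35.1, 35.1 and 29.7 against 53.8, 24.3 and 36.5 CPM, so that the mutant mice lay on both sides of the controls, and the log2 interval was -0.36 to 0.76. Wif1 was at 2.80 to 3.96 CPM in control and at 3.37, 7.69 and 3.07 CPM in mutant mice, only mutant mouse 2 being higher than the controls. Sfrp4 at 1.66 to 3.32 and 2.70 to 3.23 CPM and Dkk1 at 0.229 to 1.09 and 0.415 to 1.04 CPM overlapped, and Dkk4 had no count in any library. The summed inhibitor level, 53.8 to 69.1 RPKM in control and 64.2 to 72.2 RPKM in mutant mice, overlapped.

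None of the 4 R-spondins was called. Rspo2 had the highest level per length of them, 1.99 RPKM on average, and was at 8.09, 11.3 and 8.52 CPM in control and 7.26, 12.8 and 12.9 CPM in mutant mice. Rspo1, Rspo3 and Rspo4 were between 1.38 and 4.53 CPM in all mice, and each overlapped. Axin2, widely read as a measure of β-catenin signaling, was at 30.4, 21.4 and 18.9 CPM in control and 28.6, 18.4 and 16.6 CPM in mutant mice. The groups overlapped over most of their range, and the log2 change was -0.15 ± 0.24 (SE, edgeR adjusted p = 0.696) with an interval of -0.69 to 0.40. A gene on the opposite strand overlaps an exon of 8 of the 45 genes, namely Axin2, Wnt5a, Wnt7b, Wnt11, Fzd5, Fzd6, Rspo3 and Sfrp2, and for Wnt11, Fzd5, Rspo3 and Sfrp2 it also has a near-identical stretch. Whether the counting used strand was not given in the sources used here, so reads of such a pair may not be told apart and the levels of these 8 genes are uncertain. None of the 7 genes that rose overlaps another gene's exon or has a near-identical copy in the annotation.

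The mutant mice did not share a common order over the 7 genes. Mutant mouse 2 was the highest for Sfrp5, Wnt6, Wnt2b and Fzd8, and it also had the highest Schwann cell and fibroblast sums (7479 and 3170 CPM), while its DRG sum was level with that of mutant mouse 3 (1574 and 1572 CPM). Mutant mouse 1 was the highest for Dkk2, Fzd2 and Fzd9, and it had the highest skeletal muscle and smooth muscle sums (730 and 565 CPM). The part of these cell type markers in the 7 differences was not tested.

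A hand-written list of 79 other Wnt pathway genes, of which 78 passed the filter, placed the members in the pathway. Of the 78, 6 were higher (7.69%, beside 8.62% of all genes) and 3 lower (beside 6.01%), and the median log2 change was 0.00895. Without control mouse 2 there were 0 and 0. None of the 3 lower genes was called without control mouse 1, where 1 other gene was, nor without mutant mouse 1 or mutant mouse 2. Without mutant mouse 3, 5 genes were lower, 2 of the 3 among them. None of the 17 genes of receptors and ligand secretion was called, including Wls and Porcn, which serve the release of Wnt ligands. Porcn nevertheless lay lower in every mutant mouse, at 28.9 to 31.7 against 34.4 to 41.6 CPM (log2 change -0.29 ± 0.11, edgeR adjusted p = 0.0958), and Wls overlapped. Among 9 tested extracellular modulators, Ndp, a ligand of Fzd4 that is no Wnt, was at 2.98, 3.50 and 5.09 CPM in control and 8.56, 8.62 and 6.94 CPM in mutant mice (log2 change 1.06 ± 0.23, edgeR adjusted p = 0.0239). Sostdc1, an inhibitor of Wnt and BMP signals, was at 7.98, 5.68 and 6.18 and at 7.47, 30.1 and 22.2 CPM. Mutant mouse 1 lay within the control range, although the gene passed (log2 change 1.59 ± 0.43, edgeR adjusted p = 0.0428). Ndp lost the call in 4 of the 6 fits without 1 mouse (control mouse 1, control mouse 2, mutant mouse 1 and mutant mouse 2) and Sostdc1 in 5 of 6 (all but mutant mouse 1), with adjusted p up to 0.107 and 0.157.

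Within the β-catenin core, 2 of 29 genes were lower, a share near the 6.01% of all genes, and none was higher. Axin1, a scaffold of the complex that degrades β-catenin, was at 58.6, 51.9 and 47.3 CPM in control and 39.4, 38.3 and 41.9 CPM in mutant mice (log2 change -0.40 ± 0.10, edgeR adjusted p = 0.0378). Csnk1e, a kinase of the pathway, was at 195, 202 and 169 and at 133, 132 and 164 CPM (log2 change -0.40 ± 0.11, edgeR adjusted p = 0.0434). For both genes the groups did not overlap, and the call was lost without control mouse 1, control mouse 2, mutant mouse 1 or mutant mouse 2 (adjusted p up to 0.12 and 0.161). Ctnnb1, which encodes β-catenin, was at 481 to 489 CPM in control and 475 to 554 CPM in mutant mice. Among 10 target and feedback genes 3 rose (30%, beside 8.62% of all genes), each also controlled by other pathways. Ccnd1, a cell cycle cyclin, was at 15.5, 12.8 and 14.2 and at 40.8, 64.8 and 31.2 CPM (log2 change 1.68 ± 0.25, edgeR adjusted p = 0.00958). Cd44, a cell adhesion receptor, was at 13.9, 10.1 and 13.3 and at 22.0, 41.3 and 38.1 CPM, with a log2 change of 1.44. Tbx3, a transcription factor, was at 4.65, 3.32 and 2.23 and at 15.7, 7.80 and 9.64 CPM, with a log2 change of 1.70. None of the 3 overlapped between the genotypes, and without control mouse 2 none passed (adjusted p 0.063, 0.0742 and 0.0897).

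Of the 78 genes, 11 lay higher in the mutant without overlap of the genotypes (19.6% of all genes) and 12 lower (18.7% of all genes). The following 3 of them did not pass and were picked after their values were seen. Sp5 was at 2.47, 0.860 and 1.49 CPM in control and 0.415, 0.709 and 0.742 CPM in mutant mice (edgeR adjusted p = 0.0792). Notum was at 3.04, 2.58 and 1.83 and at 5.03, 3.27 and 6.15 CPM (edgeR adjusted p = 0.0643, and 0.0399 with DESeq2), and Lef1 at 2.52, 1.95 and 1.54 and at 2.85, 3.11 and 3.44 CPM (edgeR adjusted p = 0.125). Sp5 lay lower and Notum and Lef1 higher in every mutant mouse than in any control mouse. In the planar polarity group of 13, Invs was higher, at 6.71, 6.36 and 6.005 against 10.6, 10.1 and 11.9 CPM, and Prickle1 lower, at 66.7, 66.7 and 72.2 against 56.5, 54.3 and 57.8 CPM. Their log2 changes were 0.77 ± 0.15 and -0.29 ± 0.08 (SE, edgeR adjusted p = 0.0181 and 0.0489). Invs did not pass without control mouse 2 (adjusted p = 0.085), and Prickle1 did not pass when any of the 6 mice was left out (adjusted p 0.0546 to 0.141).

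**Figure D5:**
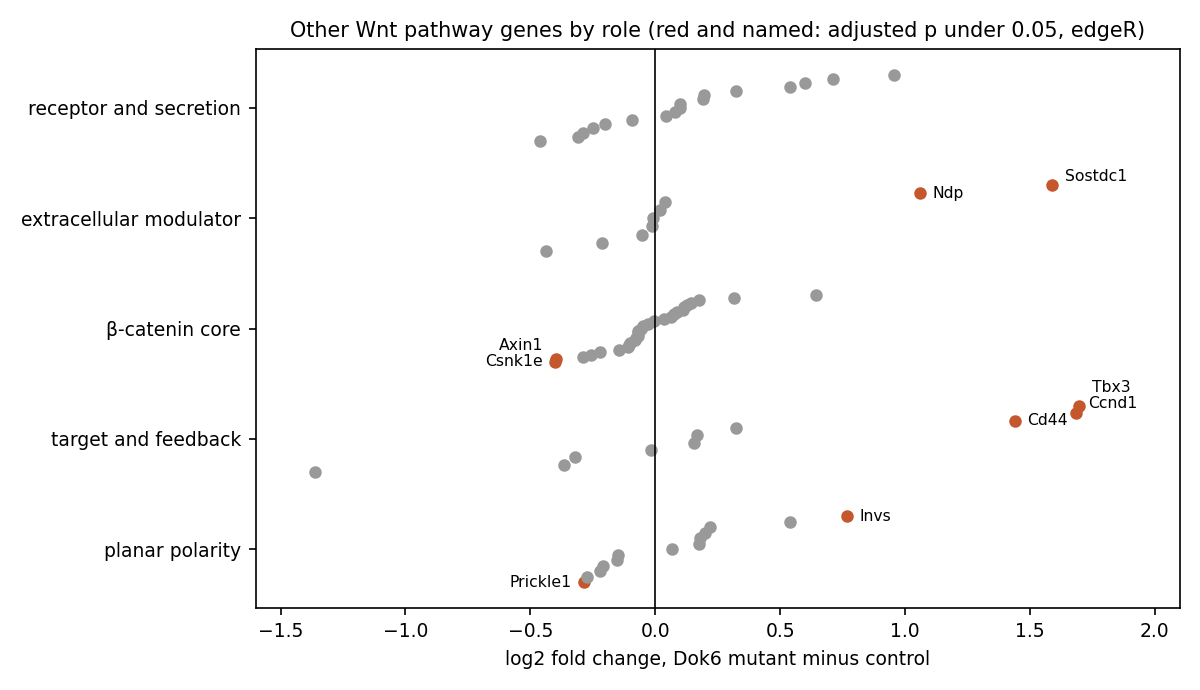
Log2 fold change of the 78 tested genes of the other Wnt pathway groups, Dok6 mutant minus control, 1 point per gene, with genes past the adjusted p in red and named. The median over the list is 0.00895, and the named genes lie on both sides of 0.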

How the data were processed

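The RNA-seq libraries of P3 sciatic nerves, 3 per genotype, were analysed. The deposited values are raw counts, whole numbers of reads per gene to which the authors applied no scaling. The authors' processing notes name the build mm10, and the aligner, the counter and the use of strand were not given in the sources used here. The labels name a kit without strand and the methods its directional version. The gene length the authors give was used for RPKM.

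Genes were kept by filterByExpr of edgeR 4.0.16 (R 4.3.3), leaving 17099 of 54532, and libraries were scaled by TMM. The genotypes were compared by the quasi-likelihood test over all genes with Benjamini-Hochberg adjustment, and genes with an adjusted p under 0.05 were called. Permuting 3 mice per genotype exactly gives a p of 0.10 at the lowest (two-sided) for any gene taken alone, so the fit across genes was used. SE were derived from the F statistic. The biological coefficient of variation was 16.6%. The floor of 3 counts covers counting error only. No 2 libraries agreed within sampling noise.

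Every Wnt gene was accounted for, and genes past the adjusted p and the genes of highest RPKM in each role were given in every mouse. Other pathway genes were named where they passed, at most 4 per role and direction. Wls, Porcn, Ctnnb1, Sp5, Notum and Lef1, which did not pass, and the marker Aqp1 were named after their values were seen. The members and lists were chosen with earlier results of these data known. Alternatives were RLE and upper-quartile scaling, DESeq2 1.42.0, limma 3.58.1 voom, other filters and fold thresholds, a replicate block and leaving out each mouse. The procedures were tested on simulated data. Gene positions and overlaps came from GENCODE M21 on GRCm38, near-identical transcripts from BLAST 2.17.0 (95% identity over 200 bases), and upstream windows from RefSeq on GRCm38.p6. The values of 1 marker gene are not reported here.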

Additional observations from a re-analysis of the deposited data

How the results depend on the processing

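The mice are few, and the calls depended on single libraries more than on the scaling. The 7 Wnt genes that rose were the same 7 with RLE and upper-quartile scaling. DESeq2 and the fit without a filter called 8, all 7 among them, limma voom called 7 with 6 shared, and with at least 10 counts in every library 6 were called, Sfrp5 not being tested. With a log2 change above 2, the count was 1, and leaving out each mouse gave 0 to 8. No Wnt gene was lower under any alternative. The pathway list had 0 higher genes above a log2 change of 2, and 0 to 6 when mice were left out. Its lower genes were 7 with DESeq2, 0 above a log2 change of 1 and 0 above 2, and 0 to 5 when mice were left out. The cause of these differences was not tested.

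The mice are numbered 1 to 3 in each genotype, but the numbers did not pair them: same-numbered deviations correlated at -0.00781, -0.168 and -0.243. With a replicate block, 2 Wnt genes (Fzd2 and Wnt2b) were higher, and the pathway list had 3 higher and 0 lower, while over all genes 432 were higher and 130 lower.

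Some changes that were not called turned sign when a mouse was left out. Over the 6 fits without 1 mouse the log2 change ranged from -0.43 to 0.079 for Axin2, from -0.044 to 0.41 for Wnt5a, from -0.089 to 0.031 for Sfrp1, from -0.13 to 0.44 for Sfrp2 and from -0.068 to 0.71 for Wif1. The turns came without control mouse 1 (Axin2, Sfrp1), control mouse 2 (Sfrp1), mutant mouse 1 (Wnt5a, Sfrp2) and mutant mouse 2 (Sfrp1, Wif1). Among the 39 genes whose log2 changes were recomputed, members and others, 58 values over all alternatives fell short of the threshold their main value passed, 7 passed it newly, and 433 were unchanged in direction and call.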

Other observations

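Several Wnt genes lie side by side on the GRCm38 genome, and their levels were read pair by pair. Wnt6, which rose, and Wnt10a are 6.2 kb apart on chromosome 1, and Wnt10a was at 0.115, 0.344 and 0.343 CPM in control and 0.519, 0.491 and 0 CPM in mutant mice. Wnt9a, at 2.29 to 3.39 CPM in control and 3.87 to 4.91 CPM in mutant mice, lies 16.2 kb from Wnt3a on chromosome 11, which stayed at 0.327 CPM or below in every mouse. Wnt3 and Wnt9b are 24.3 kb apart on the same chromosome, and Wnt3 was the higher of them in each mouse in RPKM. Wnt1 and Wnt10b, 11.7 kb apart on chromosome 15, were both at 1.32 CPM or below. No test was run on these pairs.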
